A study of Rattus norvegicus with 6 samples.

Results

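The livers of rats given the carcinogens diethylnitrosamine (DEN) and 2-acetylaminofluorene (2-AAF) were compared with the livers of vehicle-treated rats in 4 poly(A) RNA libraries of the 6 in the series. The libraries were taken by their sample titles, 2 titled control and 2 titled HCC. The animals were male Fischer-344 rats, an inbred strain, of about 180 g, studied over 16 weeks of liver injury. Control animals were given carboxymethyl cellulose (0.5% w/v) by mouth each day. HCC animals were given DEN at 50 mg/kg by weekly intraperitoneal injection and then 2-AAF at 25 mg/kg by mouth, a regimen the series uses to induce hepatocellular carcinoma (HCC). The other 2 libraries of the series, from animals that also received N-acetylcysteine, stayed outside the comparison. Each library came from pooled liver RNA: 5 animals per group were combined into 2 replicates, so no value belongs to a single rat, and the labels do not say that the replicates of a group held different animals. The p-values therefore speak of library-to-library spread alone, and that spread may be technical. Liver pieces were taken whole, so fewer cells of a type and less RNA per cell cannot be told apart.

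Hepatocytes make up most of the liver's mass, and their messenger RNA pool is led by secreted plasma proteins and by enzymes of intermediary metabolism, detoxification and bile acid synthesis. DEN is turned by hepatocyte cytochrome P450 enzymes into a DNA-alkylating species, and 2-AAF is an aromatic amine that is activated by N-hydroxylation and blocks the division of normal hepatocytes. Sequential exposure is known for producing foci of altered hepatocytes that can progress to carcinoma. Which of these functions a count belongs to could not be read here: the deposited tables list 43360 Ensembl rat gene IDs without pairing them with names, and 0 of them received a symbol from the reference table used. The liver label could not be checked against marker genes for the same reason. The account below is therefore by gene ID, by abundance and by size of change, and gene positions were not analysed here.

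The libraries held between 33917707 and 37717373 counts, and 16056 IDs passed the filter on low counts. Replicates did not agree within counting noise (chi-square per ID of 10.2 in control and 5.22 in HCC). They lay more than 2-fold apart for 5.20% of tested IDs in control and 0.411% in HCC. Control replicate 1 was short of weak signals: of the IDs with 20 to 50 counts in its partner, 11.5% had no count in it, against 2.95% for control replicate 2, 0.115% for HCC replicate 1 and 0.460% for HCC replicate 2. Only 336 IDs had 1 to 5 counts in control replicate 1, beside 3271 in control replicate 2, 2847 in HCC replicate 1 and 3364 in HCC replicate 2. A 0 in control replicate 1 is therefore weak evidence of absence. The deposited files of the control and HCC groups carry different name prefixes. If these mark separate handling, that handling and the treatment cannot be told apart.

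In HCC livers a small group of very abundant transcripts fell by 4-fold or more. Among the 113 IDs with a mean of at least 1000 CPM (counts per 1000000 of the effective library size), 15 fell and 3 rose by 4-fold or more. Of all 16056 tested IDs, 236 fell and 789 rose by 4-fold to 16-fold. Another 101 fell and 381 rose by 16-fold or more, where an absent group was set to 3 counts per library. The 15 that fell together took 7.83% and 7.93% of all counts in the control libraries but only 0.688% and 0.683% in HCC. The 3 that rose took 0.0375% and 0.0373% in control and 1.01% and 1.05% in HCC. Since these sets were picked by their change, the sums are a description.

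The most abundant of the 15 had rank 4 in control liver. It took 2.82% and 2.90% of the counts in the control libraries and 0.0664% and 0.0646% in the HCC libraries, where it ranked 153. Both HCC libraries thus lay far below both controls, and the edgeR quasi-likelihood test with Benjamini-Hochberg adjustment gave log2 fold change -5.80 ± 0.041 (SE) at adjusted p = 2.55e-12. The steepest fall of the 15 was from 3193 and 3345 CPM in control to 21.3 and 19.8 CPM in HCC, 158.7-fold lower (adjusted p = 2.66e-12, edgeR). A second ID fell from 2015 and 2168 CPM to 13.8 and 14.1 CPM. The mildest of the 15 fell 4.00-fold, from 4457 and 4754 CPM to 1144 and 1157 CPM, and it remained at rank 80 in HCC liver. The set thus ran from transcripts that stayed abundant to transcripts near 14 CPM.

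The largest rise among these abundant IDs was from 16.2 and 18.4 CPM in the control libraries to 4951 and 5143 CPM in the HCC libraries. This is a 292.3-fold increase (log2 fold change 8.19 ± 0.067 SE; adjusted p = 2.66e-12, edgeR), which took the ID from rank 5627 in control to rank 20 in HCC liver. The other two rose from 126.3 and 139.2 CPM to 2174 and 2347 CPM, and from 272.4 and 270.6 CPM to 1833 and 1858 CPM.

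**Figure D1:**
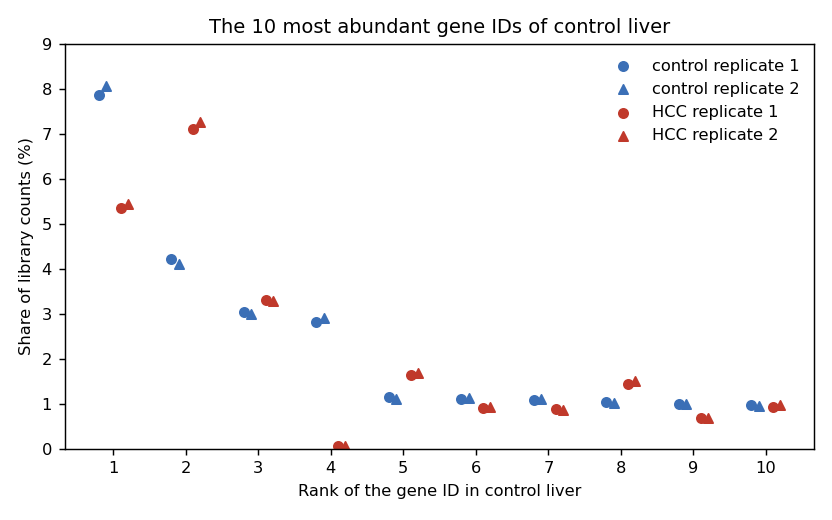
Share of library counts (%, vertical axis) of the 10 most abundant gene IDs of control liver, ordered by their rank in control (horizontal axis). Each point is 1 library. The ID at rank 4 sits at 2.82% and 2.90% in control and near 0.07% in HCC.

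Among the 10 most abundant IDs of control liver, 3 rose and 7 fell, beside 21.3% and 20.6% of all tested IDs. Ranking in control favours falls: of the 10 most abundant IDs of HCC liver, 6 rose, 3 fell and 1 had no call. With libraries scaled by their totals alone, the control ranking held 4 rises and 5 falls. The leading ID took 7.87% and 8.06% of counts in the control libraries and 5.34% and 5.45% in the HCC libraries, which the edgeR fit put at -0.91 ± 0.030 on the log2 scale (SE; adjusted p = 1.75e-08). The ID at rank 2 took 4.22% and 4.11% in control and 7.12% and 7.26% in HCC, put at 0.44 ± 0.022 on the log2 scale (SE; adjusted p = 2.70e-07, edgeR). It became the most abundant transcript of HCC liver. Shares and scaled fold changes differ here because the scaling factors differed between the groups, with 0.904 and 0.870 in control and 1.13 and 1.12 in HCC. The ID at rank 3 shows this. Its share was 3.05% in control replicate 1 and slightly less in control replicate 2, against 3.30% and 3.27% in HCC. Its log2 fold change was -0.22 with the scaling used throughout and 0.12 when libraries were scaled by their totals alone, a setting chosen after seeing the data.

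Of the 100 most abundant IDs of control liver, 66 were also among the 100 most abundant of HCC liver, whereas the replicates of a group shared 99 of 100 in control and 99 in HCC. In this control ranking 82 IDs fell, 13 rose and 5 had no call. Across all tested IDs 20.6% fell and 21.3% rose. The 100 most abundant IDs of HCC liver held 42 rises and 51 falls. With libraries scaled by their totals alone, the HCC ranking held 57 rises and 39 falls, so its leading direction rests on the scaling. The control ranking then held 24 rises and 73 falls. The 100 leading IDs of control took 52.0% ± 0.040 (SD, n = 2) of counts in control and 44.1% ± 0.19 (SD, n = 2) in HCC. Those of HCC took 43.9% ± 0.042 (SD, n = 2) in control and 49.0% ± 0.23 (SD, n = 2) in HCC, so each ranking favours its own group.

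The transcript pool of HCC liver was spread over more genes. To reach 50% of all counts took 84 IDs in each control library but 114 and 110 IDs in HCC. For 90% of counts 3106 and 3125 IDs were needed in control and 4054 and 4003 in HCC. The effective number of IDs (the exponential of the Shannon entropy of the count shares) was 831.0 and 830.6 in control and 1041 and 1016 in HCC. The groups did not overlap in any of these measures, but 2 libraries against 2 cannot give a two-sided exact permutation p below 0.333.

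**Figure D2:**
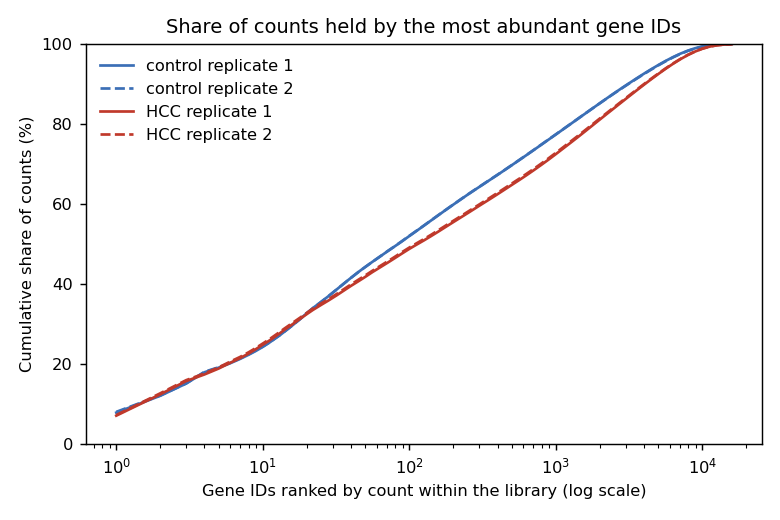
Cumulative share of counts (%, vertical axis) against gene IDs ranked by count within each library (horizontal log axis), 1 line per library. The HCC lines run below the control lines from the 22 most abundant IDs onward until all lines near 100%, and the replicate lines of each group nearly coincide.

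Over the whole transcriptome 3421 IDs rose and 3308 fell in HCC livers, 41.9% of those tested. In every called ID both HCC libraries lay on the same side of both controls. Of all tested IDs, 39.4% had both HCC libraries above both controls and 34% had both below. The IDs that fell held 68.2% ± 0.12 (SD, n = 2) of the counts in control and 44.9% ± 0.025 (SD, n = 2) in HCC. The IDs that rose held 18.4% ± 0.15 (SD, n = 2) in control and 38.1% ± 0.17 (SD, n = 2) in HCC. Those without a call held 13.3% ± 0.025 (SD, n = 2) and 16.9% ± 0.15 (SD, n = 2). The IDs that rose or fell were picked by their change in these same libraries, so the direction of their shares is a description. The balance of directions rests on the scaling: with library totals alone 6062 IDs rose and 1821 fell, and the median log2 fold change of all tested IDs moved from 0.06 to 0.41. The number of rises was 5885 without control replicate 2, 2136 without HCC replicate 1 and 2179 without HCC replicate 2.

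Rises and falls differed in size. The median riser was 2.31-fold higher and the median faller 1.69-fold lower, with median standard errors of 0.20 and 0.11 on the log2 scale. With an absent group set to 3 counts per library, 381 rises (11.1%) and 101 falls (3.05%) were 16-fold or more, and 789 rises and 236 falls were 4-fold to 16-fold. At the other end 718 rises (21.0%) and 1132 falls (34.2%) were under 1.5-fold. IDs at 0 in only 1 library of the lower group kept their fitted fold change. These were 302 risers for control replicate 1 and 9 for control replicate 2, and 18 fallers for HCC replicate 1 and 12 for HCC replicate 2. Their part in the large changes was not tested. Over all abundances, large changes were mostly rises and small changes mostly falls, but this did not hold for abundant IDs. Changes of 4-fold or more were 15 rises and 37 falls at 100 to 1000 CPM, and 3 rises and 15 falls at 1000 CPM or more.

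**Figure D3:**
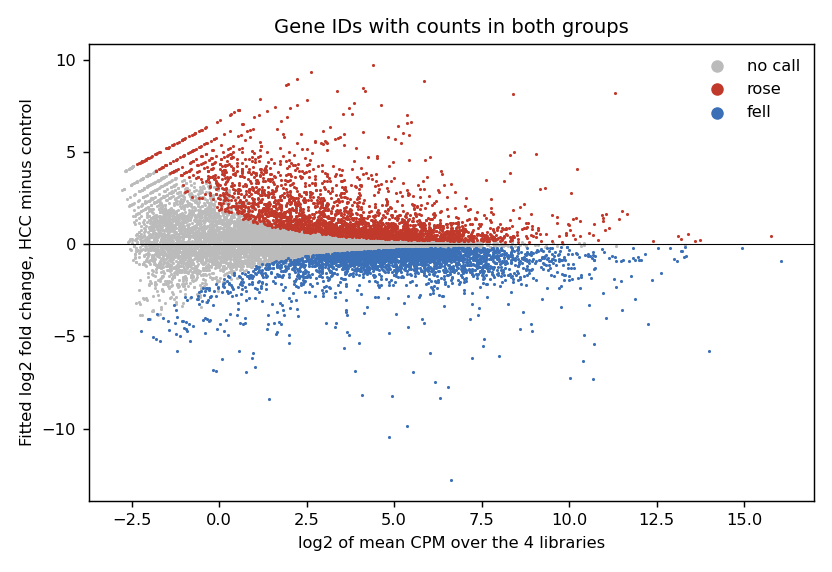
Fitted log2 fold change (HCC minus control, vertical axis) against the log2 of mean CPM over the 4 libraries (horizontal axis) for IDs with counts in both groups, each point 1 ID, coloured by call. Large rises crowd the left, while most IDs of high abundance lie below 0, among them the fall of -5.80 of the transcript with rank 4 in control.

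The direction of change varied with abundance. Below 1 CPM on average, 15.3% of 2857 IDs rose and 3.26% fell. From 1 to 10 CPM 22.7% of 5571 rose and 9.30% fell, and from 10 to 100 CPM 22.1% of 6423 rose and 30.8% fell. From 100 to 1000 CPM 24.4% of 1092 rose and 59.1% fell, and from 1000 CPM up 28.3% of 113 rose and 66.4% fell. With the scaling used throughout, the share of risers therefore changed little from 1 CPM upward, whereas the share of fallers climbed with abundance. Replicates also agreed better in abundant IDs: the median log2 difference between control replicates was 0.34 at 1 to 10 CPM and 0.062 at 1000 CPM or more, beside median differences between groups of 0.51 and 0.86.

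**Figure D4:**
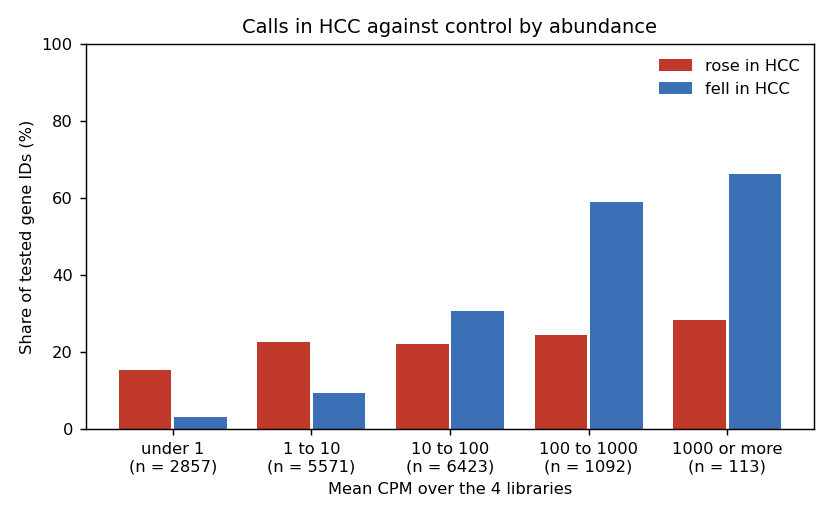
Share of tested gene IDs (%, vertical axis) that rose or fell in HCC livers, by mean CPM over the 4 libraries (horizontal axis, with the number of IDs in each class). With the scaling used throughout, risers make up 22.1% to 28.3% from 1 CPM upward, while fallers go from 9.30% to 66.4%.

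At 10 CPM or more the risers numbered 1719 and the fallers 2697. A fit restricted to such abundant IDs, also chosen after seeing the data, gave 2346 and 2402 of them, and library totals alone gave 3431 and 1461. Below 10 CPM 1702 rose and 611 fell, and rises outnumbered falls there in each of the alternatives that kept such IDs, with the smallest ratio without HCC replicate 1, 828 against 350. Some risers had no count in a control library, and an ID at 0 in both controls can only rise. Of the 3421 risers at all abundances 310 were at 0 in both control libraries, 302 in control replicate 1 only and 9 in control replicate 2 only. Among the 310, 252 had a mean under 1 CPM, 52 a mean of 1 to 10 CPM and 6 a mean of 10 to 100 CPM. The part that the shortage of weak signals in control replicate 1 had in the weak rises was not tested. The other 2800 risers had counts in both control libraries.

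Some transcripts were counted in 1 group only. A set of 41 IDs was at 0 in both control libraries while each HCC library held at least 100 counts of it. They reached 2.67 to 101.9 CPM in HCC livers, with a median of 5.84 CPM. The reverse was seen for 5 IDs, at 4.57 to 188.6 CPM in control livers. Without control replicate 2 the 41 became 131, since 90 further IDs were at 0 in control replicate 1 alone, and without HCC replicate 2 the 5 became 8.

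By fitted fold change, the IDs with the largest rise and fall at a mean of 10 CPM or more all belonged to these sets. A ranking by fitted change favours IDs with no count in a group. ENSRNOG00000002331 had 0 counts in both control libraries and 4172 and 4036 counts in the HCC libraries, or 101.9 ± 6.1 CPM (SD, n = 2), which is at least 1111-fold above a floor of 3 counts in each control library (edgeR adjusted p = 3.17e-09). It stood at rank 1064 of the tested IDs in HCC liver. ENSRNOG00000010210, also at 0 in control, had 2981 and 2607 counts in HCC, at least 754.1-fold higher (adjusted p = 5.85e-09, edgeR).

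ENSRNOG00000081104 had 6216 and 6118 counts in the control libraries and none in HCC replicate 1 or 2, which makes it at least 2528-fold lower (edgeR adjusted p = 5.55e-10). It stood at rank 660 in control liver, with 188.6 ± 7.6 CPM (SD, n = 2). ENSRNOG00000069670 had 2084 and 1866 counts in control and 0 in HCC, at least 808.3-fold lower (edgeR adjusted p = 7.12e-09). These 4 IDs were chosen for their change and for groups that do not overlap, so their separation is a description. The bounds cover counting error only.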

How the data were processed

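Per the labels' protocols, total RNA of liver was pooled and poly(A)-selected; the protocol speaks of mice although the organism is given as rat. The authors deposited raw counts per Ensembl gene ID for each library; STAR alignment, featureCounts counting, FastQC and edgeR are named per the submitters' processing notes. Versions, genome build, annotation and strand setting: not given in the sources used here. How the counting treated reads of paralogs and overlapping genes is unstated.

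The 4 libraries were fitted with edgeR 4.0.16 in R 4.3.3: filterByExpr (which kept at least 99.94% of each library's counts), TMM scaling, glmQLFit and glmQLFTest with 2 residual degrees of freedom, and Benjamini-Hochberg adjustment over the 16056 tested IDs. An ID rose or fell at an adjusted p under 0.05. Standard errors were derived from the F statistic; replicate differences used log2(CPM + 0.5). The 35 gene lists prepared, with 647 symbols, could not be used, since the reference table (47357 genes) held 0 Ensembl IDs, so no list or cell type marker result is given. Named IDs were the 2 largest rises and 2 largest falls by fitted fold change with a mean of at least 10 CPM and groups that did not overlap; other IDs are described by rank. The comparison and the lists were chosen with earlier results of these data known. Counts were also simulated for 16056 IDs with 200 changed. On these the fit recovered 31.2% of the changes of 1.5-fold, 69.6% of those of 2-fold and 92.5% of those of 4-fold, with 7 false calls. The changed IDs had a mean of at least 1 CPM and random directions, and control replicate 1 had no shortage of weak signals. In the data 41.9% of tested IDs were called, so these rates need not hold there. Alternatives were RLE, upper-quartile and total-count scaling, DESeq2 1.42.0, other filters, all 6 libraries, a replicate block, a 2-fold minimum and leaving out each library.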

Additional observations from a re-analysis of the deposited data

Results flagged for a closer look

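Both named IDs that were absent from control liver were also counted in the N-acetylcysteine libraries, which the comparison did not use. ENSRNOG00000002331 had 2946 and 3016 counts there, 83.3 CPM by library totals on average, beside 0 in control and 114.8 in HCC. ENSRNOG00000010210 had 1036 and 893 counts, 26.9 CPM, beside 0 in control and 77.9 in HCC. The named IDs absent from HCC liver were at 0 in both N-acetylcysteine libraries.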

How the results depend on the processing

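Rises outnumbered falls in 8 of the 13 alternatives that refitted the model, and total calls ranged from 4793 (IDs of at least 10 CPM) to 10015 (without control replicate 2). Requiring a 2-fold change left 1970 rises and 1122 falls. Leaving out 1 library gave 2136 to 5885 rises and 2677 to 4130 falls, where the lone library of a group was assumed to vary like the others. Library totals alone gave 6062 rises and 1821 falls and turned the direction of 23 calls; in the other 12 alternatives 0 calls turned. With the replicate number as a block 3483 rose and 3345 fell. The replicate differences of the groups correlated at r = 0.0056 across tested IDs and at 0.057 across those with a mean of 10 CPM or more. With a single replicate difference per group, these values cannot decide whether the numbers pair the samples, and the labels do not say. With all 6 libraries in the fit 2876 rose and 3007 fell, of which 2827 and 2964 were among those reported. The 4 named IDs kept direction and call in each of their 52 values under these alternatives. They were chosen for their change and had no count in either library of their lower group. A reversal was therefore hardly possible, and these values add no support. The setting of 10, 30 or 300 counts in place of 100 gave 328, 112 and 16 IDs absent from control, and 41, 10 and 2 absent from HCC. Low counts limit the weak IDs, and a missing call under 2-fold says little about whether an ID changed.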
